A study of Mus musculus with 9 samples.

Results

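The genes of oxidative phosphorylation were followed in BV2 cells, an immortalized line of mouse microglia, under oxygen-glucose deprivation (OGD) with and without A-485. The set was chosen by name and place. It took the protein-coding genes of mitochondrial DNA together with the nuclear genes named for subunits of respiratory complexes I to V or for their assembly (Nduf, Sdha to Sdhd, Uqc, Cox4 to Cox8 and Atp5), and it left out 7 genes, Ndufa4, Ndufa4l2, Cox4i1, Cox4i2, Cox7a1, Cox7a2 and Cox7a2l. The rule uses no measured value, although it was written with earlier results of these data known. The set held 103 genes, 13 in mitochondrial DNA and 90 in the nucleus, among 22046 protein-coding genes and 54532 genes in all. Of these, 98 reached a mean of 0.2 FPKM (fragments counted per kilobase of gene, scaled to the depth of the library) over the 9 libraries and were tested. The remaining 5, below that level in the microglia, were Cox8b, Cox6b2, Cox7b2, Cox8c and a second identifier for Atp5o.

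Each group had 3 libraries of mRNA. The Ctrl cells stayed in complete medium with 10% serum. The OGD cells were kept in low-glucose medium with 4% serum in a chamber at 4% oxygen, and the OGD_A_485 cells received A-485, which blocks the histone acetyltransferase P300, from the start of OGD. The duration of 24 h and the dose of 50 μM come from the experiments that preceded the transcriptome in the study and were taken to be the same. All cells were of 1 line, and no group received A-485 without OGD, so the comparison of OGD_A_485 with OGD is of the inhibitor within deprived cells. The labels do not say that the libraries of a group came from separate cultures, so the p-values measure the spread between these libraries, which may be technical.

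Oxidative phosphorylation passes electrons from NADH and succinate through complexes I to IV to oxygen and uses the proton gradient built on the way to make ATP at complex V. Mitochondrial DNA encodes only hydrophobic core subunits of complexes I, III, IV and V, transcribed as long precursors from both strands and cut into single RNAs. The nucleus encodes all of complex II, the other subunits of the remaining complexes and the assembly factors, and nuclear and mitochondrial products are joined stepwise in the inner membrane. Microglia that become inflammatory are known to lean more on glycolysis than on this pathway.

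The libraries held 12593250 to 16091038 reads on genes, so that 1 read on a gene of 1 kb was worth 0.0618 to 0.0786 FPKM, and mitochondrial genes took 1.14% to 2.20% of reads. No library was a copy of another. Of 14 microglia and macrophage markers, 13 were at 1 FPKM or more and P2ry12 was below, while none of the 6 markers each of neurons, astrocytes, the oligodendrocyte lineage or fibroblasts and endothelium reached 1 FPKM. The microglial markers summed to 605 to 628 FPKM in Ctrl, 780 to 798 in OGD and 1392 to 1433 in OGD_A_485, a shift whose part in the results below was not tested. Of 12 hypoxia-induced genes 11 rose in OGD against Ctrl, beside 11.2% of all genes tested, with a median log2 fold change of 1.28. The list was made with earlier results of these data known, so it is no independent check of the labels. In RNA from whole cultures a lower level can come from fewer cells that carry the RNA or from less RNA per cell, which cannot be told apart.

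Differences were tested with limma on log2(FPKM + 0.1), a scale that understates the change of genes near 0.1 FPKM. A gene was called changed at an unadjusted p under 0.01 with a log2 fold change over 0.5 in size, the thresholds of the study. The p-values printed are adjusted over all 16123 genes tested. The rise, fall and change of a gene refer to this call alone.

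Under OGD more of the oxidative phosphorylation genes fell than rose, and the genes of mitochondrial DNA had the lowest median. Against Ctrl, 17 of the 98 tested genes fell and 1 rose, where 9.81% of all genes tested fell and 11.2% rose (21.0% together). In mitochondrial DNA 8 of 13 genes fell, none rose, and all 13 fitted differences were below 0 with a median log2 fold change of -0.82. In the nucleus 9 of 85 fell, a share near the 9.81% of all genes, and 1 rose. The nuclear median was -0.11, beside 0.014 over all genes tested. By adjusted p under 0.05 alone, 38 of the 98 were lower and 7 higher, beside 22.8% and 22.5% of all genes (45.3% together).

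Summed over the mitochondrial genes, the level was 12750, 13644 and 15820 FPKM in the Ctrl libraries and 7704, 8624 and 8005 in the OGD libraries, without overlap. The sum over the nuclear members was 4481 FPKM ± 140.5 (SD, n = 3) in Ctrl and 4274 ± 326 in OGD. Mitochondrial DNA therefore supplied 75.7% ± 1.67 (SD, n = 3) of the summed FPKM of the set in Ctrl and 65.5% ± 3.0 in OGD. The most abundant member was mt-Co1, at a mean of 6038 FPKM over the 9 libraries, so it weighed most in these sums. Mitochondrial genes with nuclear copies, described below, may be counted too low in them.

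Within mitochondrial DNA the genes for complex I showed the lowest values under OGD. Of its 7 mitochondrial genes 6 fell, with a median log2 fold change over the 7 of -0.98. The single complex III gene fell, as did 1 of the 2 complex V genes, and none of the 3 complex IV genes passed the call. Whether the complexes differed from each other was not tested. All 3 complex IV genes and mt-Atp6 have near-identical nuclear copies, described below, which can take reads. Of the complex I genes mt-Nd3, mt-Nd4 and mt-Nd4l do. The part of copies in this order of complexes was not tested.

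The gene mt-Nd1 (chrMT:2751-3707, plus strand), which encodes a membrane subunit of complex I next to the ubiquinone site, showed the largest fall. Its level was 2379, 2529 and 3025 FPKM in the Ctrl libraries, 815, 819 and 799 in the OGD libraries and 1414, 1833 and 1718 in the OGD_A_485 libraries. The 3 groups did not overlap, and the OGD_A_485 libraries lay between the other groups. The log2 fold change of OGD against Ctrl was -1.70 ± 0.12 (SE, adjusted p = 7.81e-06, limma). For mt-Nd2, a proton-pumping subunit, the levels were 943, 949.9 and 1168 FPKM in Ctrl, 444, 453 and 416 in OGD and 506, 677 and 588 in OGD_A_485. Its Ctrl libraries were likewise above all the others (log2 fold change of OGD against Ctrl -1.21 ± 0.12, SE, adjusted p = 4.87e-05, limma).

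The other large pumping subunits of complex I, mt-Nd4 and mt-Nd5, fell in OGD to levels that the OGD_A_485 libraries did not share. Levels of mt-Nd4 were 652, 692 and 799 FPKM in Ctrl, 339, 430.4 and 384 in OGD and 592, 736 and 603 in OGD_A_485. Those of mt-Nd5 were 848, 889 and 1081 in Ctrl, 539, 518 and 535 in OGD and 900.4, 1096 and 1015 in OGD_A_485. For both genes every OGD library was below every other library, and Ctrl and OGD_A_485 overlapped. The log2 fold change of OGD against Ctrl was -0.90 ± 0.12 for mt-Nd4 and -0.82 ± 0.10 for mt-Nd5 (SE, adjusted p = 0.000315 and 0.000213, limma).

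Cytochrome b, the only mitochondrially encoded subunit of complex III and the carrier of its haems b, followed the same order. Levels of mt-Cytb were 1326, 1447 and 1702 FPKM in Ctrl, 780.1, 841 and 817 in OGD and 1501, 1798 and 1623 in OGD_A_485. The OGD libraries lay apart from both other groups, which overlapped, with a log2 fold change against Ctrl of -0.87 ± 0.10 (SE, adjusted p = 0.000163, limma).

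The gene mt-Nd6 is the only protein-coding gene on the other strand of mitochondrial DNA (chrMT:13552-14070, minus strand), so it comes from another precursor than the genes above. Its levels were 594, 570.1 and 819.8 FPKM in Ctrl, 353, 344 and 298 in OGD and 420.4, 624 and 818 in OGD_A_485. The OGD libraries were below all others, and the log2 fold change against Ctrl was -0.98 ± 0.23 (SE, adjusted p = 0.00749, limma). The call was lost without Ctrl_3 (-0.81) and without OGD_3 (-0.91). Levels of mt-Nd6 are uncertain for another reason: strandedness of the counting is not given in the sources used here, and reads of the opposite strand at this place could enter.

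No mitochondrial gene of complex IV, the oxidase that hands electrons to oxygen, passed the call in OGD against Ctrl. Its catalytic subunit mt-Co1 was at 5728, 6208 and 6834 FPKM in Ctrl, 4205, 4945 and 4516 in OGD and 6796, 7708 and 7402 in OGD_A_485. The OGD libraries were again below all others, but the log2 fold change of -0.46 ± 0.12 (SE, adjusted p = 0.0128, limma) was under the size asked for. For mt-Co2 and mt-Co3, which were measured at far lower levels, OGD overlapped Ctrl, with log2 fold changes of -0.43 and -0.17 (adjusted p = 0.221 and 0.638, limma).

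**Figure D1:**
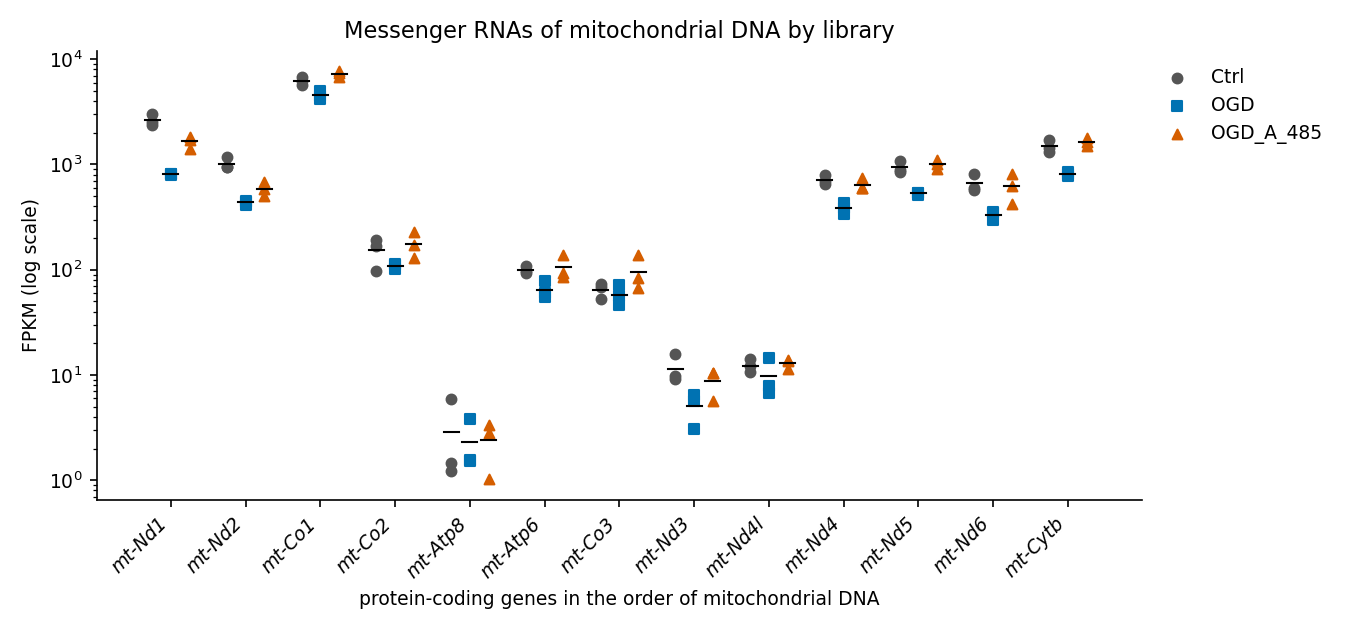
Level of the 13 protein-coding genes of mitochondrial DNA in each of the 9 libraries, in FPKM on a log axis, in genome order from left to right, with a colour per group. The OGD libraries are the lowest for mt-Nd1, mt-Nd2, mt-Nd4, mt-Nd5, mt-Nd6, mt-Cytb, mt-Co1 and mt-Atp6. In every group mt-Nd3, mt-Nd4l and mt-Atp8 are far below the other genes shown.

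Some mitochondrial genes overlap, and a read on the shared bases cannot be given to one of them alone. The genes mt-Atp8 (chrMT:7766-7969) and mt-Atp6 (chrMT:7927-8607) share 43 bases on 1 bicistronic RNA, and mt-Nd4l (chrMT:9877-10173) and mt-Nd4 (chrMT:10167-11544) share 7. The last bases of the upstream gene of each pair are shown, 5′ to 3′ on the plus strand of GRCm38, with the shared bases in capitals.
mt-Atp8: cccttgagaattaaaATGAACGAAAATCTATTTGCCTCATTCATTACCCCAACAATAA
mt-Nd4l: tctcaacctactacaATGCTAA

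Although both members of such a pair are on the same RNA, their listed levels were far apart. Levels of mt-Atp6, the membrane subunit that carries protons to the rotor, were 109, 93.2 and 97.7 FPKM in Ctrl, 54.6, 77.5 and 60.2 in OGD and 137, 93.1 and 85.6 in OGD_A_485, with the OGD libraries lowest. Its partner mt-Atp8 was at 1.02 to 5.85 FPKM over the 9 libraries, from 3 to 17 reads. The lower of the pair therefore rests on few reads and shows no order of groups, while mt-Atp6 fell in OGD (log2 fold change -0.65 ± 0.18, SE, adjusted p = 0.0182, limma). That call was lost without Ctrl_1 (-0.59), Ctrl_2 (-0.70), Ctrl_3 (-0.67), OGD_1 (-0.54), OGD_3 (-0.62) or OGD_A_485_2 (-0.65).

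The gene mt-Nd3 was also thinly counted, at 15 to 89 reads. It was at 9.68, 9.08 and 15.8 FPKM in Ctrl, 5.64, 6.40 and 3.06 in OGD and 5.70, 10.4 and 10.4 in OGD_A_485 (log2 fold change of OGD against Ctrl -1.20 ± 0.34, SE, adjusted p = 0.0188, limma). The OGD libraries were below Ctrl, but the call was lost without Ctrl_1 (-1.30), Ctrl_3 (-0.95), OGD_1 (-1.31), OGD_3 (-0.88) or either of OGD_A_485_2 and OGD_A_485_3 (-1.20). For mt-Nd4l, at 26 to 68 reads, OGD overlapped Ctrl (log2 fold change -0.40, adjusted p = 0.242, limma).

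Nuclear copies of mitochondrial DNA bear on some of these values. Copies of 98% identity or more over at least 100 bases and most of their own length were found for 21 members, 7 of them mitochondrial: mt-Co1, mt-Co2, mt-Co3, mt-Atp6, mt-Nd3, mt-Nd4l and mt-Nd4. Reads shared with a copy may have been counted there or dropped, so these 7 are uncertain. With the reads of the copies added, an alternative chosen after seeing the data, the fall of mt-Nd4 was the same (-0.90), that of mt-Atp6 was -0.40 and no longer called, and mt-Nd3 turned to 0.26 (adjusted p = 0.686, limma). The copy of mt-Nd3 was listed at a mean of 70.0 FPKM in Ctrl, 96.1 in OGD and 67.9 in OGD_A_485, above the gene itself at 11.5, 5.04 and 8.81. No such copy was found for mt-Nd1, mt-Nd2, mt-Nd5, mt-Nd6, mt-Cytb or mt-Atp8. Only annotated transcripts were searched, so a copy without annotation would be missed.

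Among the nuclear genes of the set the Ndufaf assembly factors of complex I stood lowest under OGD. The Ndufaf proteins are not in the finished enzyme but chaperone or modify its parts while it is built. All 8 fitted differences were below 0 with a median of -0.46, and 4 of 8 fell, beside 9.81% of all genes tested. The 8 complex I assembly genes outside the set had none called and a median of -0.03. The 7 nuclear core subunits of complex I, which carry its flavin and iron-sulfur centres, had a median of 0.01 with none called. Of 29 supernumerary subunits 2 fell and 1 rose (median -0.14).

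The assembly factor Ndufaf4, which acts early in building the arm that faces the matrix, was at 6.08, 6.03 and 5.74 FPKM in Ctrl, 2.52, 1.93 and 2.28 in OGD and 3.23, 3.78 and 3.32 in OGD_A_485. The 3 groups were apart, with OGD lowest (log2 fold change of OGD against Ctrl -1.38 ± 0.10, SE, adjusted p = 1.31e-05, limma). Ndufaf6, another early factor, was at 6.36, 7.10 and 5.85 FPKM in Ctrl, 3.31, 3.42 and 3.91 in OGD and 4.65, 3.84 and 4.55 in OGD_A_485. Here Ctrl was above both treated groups, which overlapped (-0.84 ± 0.11, SE, adjusted p = 0.000224, limma).

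Ndufaf2, a late factor that sits on the nearly complete enzyme, fell in OGD and again with A-485. Its levels were 8.40, 8.53 and 9.54 FPKM in Ctrl, 5.78, 4.64 and 4.73 in OGD and 2.62, 3.27 and 3.21 in OGD_A_485. The groups were apart and in this order, with a log2 fold change of -0.80 ± 0.11 for OGD against Ctrl and of -0.72 ± 0.11 for OGD_A_485 against OGD (SE, adjusted p = 0.00047 and 0.000756, limma). Ndufaf8, the partner of Ndufaf5 in modifying a core subunit, was at 8.80, 7.41 and 7.26 FPKM in Ctrl, 5.27, 4.42 and 6.56 in OGD and 4.60, 5.62 and 5.66 in OGD_A_485. The treated groups overlapped each other and not Ctrl (-0.53 ± 0.15, SE, adjusted p = 0.0169, limma). The call was lost without Ctrl_1 (-0.45), Ctrl_2 (-0.57), Ctrl_3 (-0.58), OGD_1 (-0.52) or OGD_2 (-0.40). The remaining factors, Ndufaf1, Ndufaf3, Ndufaf5 and Ndufaf7, did not pass it and are named only to complete the list.

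Complex III has assembly factors of its own, which load cytochrome b. Uqcc2 was at 48.6, 54.7 and 54.2 FPKM in Ctrl, 37.4, 29.2 and 39.0 in OGD and 27.6, 27.8 and 30.5 in OGD_A_485. Ctrl was above the other groups, which overlapped (log2 fold change of OGD against Ctrl -0.58 ± 0.10, SE, adjusted p = 0.00178, limma), and the call was lost without OGD_2 (-0.45). Uqcc3 took the other direction, at 8.31, 8.38 and 9.01 FPKM in Ctrl, 12.7, 9.45 and 10.5 in OGD and 12.8, 13.4 and 17.2 in OGD_A_485. Its difference between OGD and Ctrl did not pass (0.33, adjusted p = 0.0671, limma), and that between OGD_A_485 and Ctrl did (0.74, adjusted p = 0.00113, limma).

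**Figure D2:**
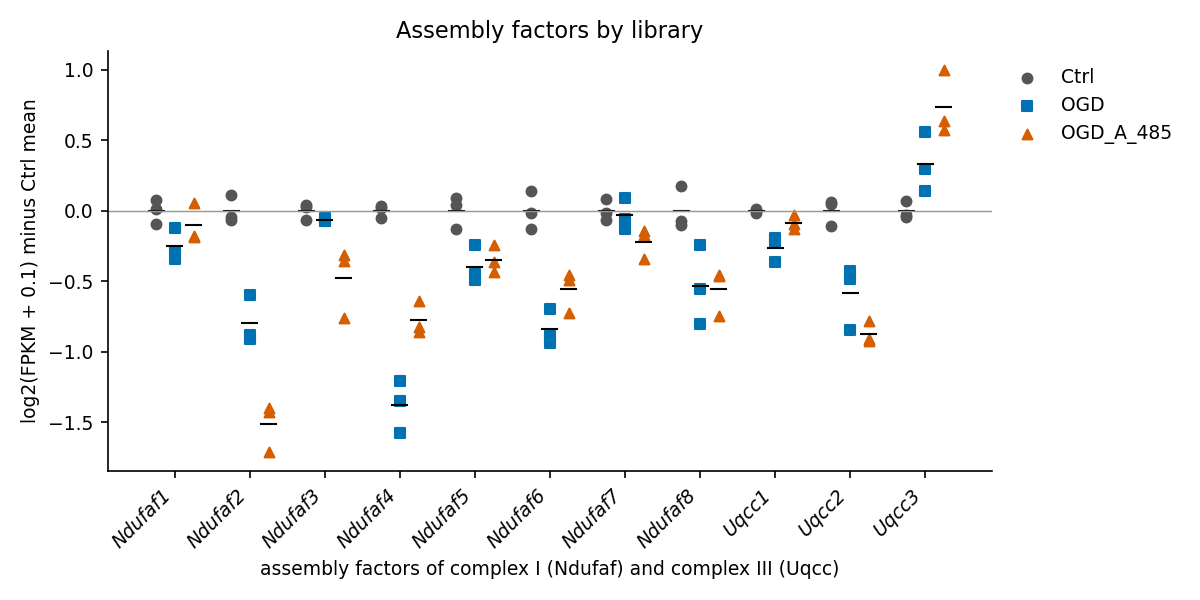
Assembly factors of complexes I and III, each point a library, on the axis log2(FPKM + 0.1) minus the mean of the gene in Ctrl, with a colour per group. Ndufaf4, Ndufaf6 and Ndufaf8 lie below 0 in both treated groups, Ndufaf2 and Uqcc2 go lower still in OGD_A_485, and Uqcc3 lies above 0.

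Complex II, succinate dehydrogenase, is encoded wholly in the nucleus, and its 4 subunits showed different orders of the groups. Sdhd, a membrane anchor, was at 172, 164 and 165 FPKM in Ctrl, 113, 112 and 114 in OGD and 154, 157 and 156 in OGD_A_485. The replicates were very close and the 3 groups apart, with OGD lowest, by a log2 fold change of -0.56 ± 0.03 against Ctrl (SE, adjusted p = 3.38e-06, limma). Its partner anchor Sdhc was at 34.6, 36.1 and 34.1 FPKM in Ctrl, 38.6, 36.6 and 36.7 in OGD and 36.5, 33.3 and 37.6 in OGD_A_485. The OGD libraries were slightly above Ctrl, by 0.09 (adjusted p = 0.17, limma).

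The catalytic part of complex II, the flavoprotein Sdha and the iron-sulfur protein Sdhb, stepped down from Ctrl to OGD to OGD_A_485. Sdhb was at 61.9, 66.4 and 65.1 FPKM in Ctrl, 53.4, 51.1 and 54.2 in OGD and 39.5, 35.5 and 42.2 in OGD_A_485, with the groups apart. Neither step passed the size asked for (-0.28 and -0.44, adjusted p = 0.00502 and 0.000369, limma), but the whole difference of OGD_A_485 from Ctrl did (-0.72, adjusted p = 1.13e-05, limma). Sdha was at 93.8, 101 and 93.8 FPKM in Ctrl, 85.2, 82.3 and 88.4 in OGD and 77.7, 70.3 and 73.8 in OGD_A_485, again with the groups apart and neither step called (-0.17 and -0.21, adjusted p = 0.0202 and 0.00735, limma).

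The c subunit, of which a ring forms the rotor of complex V, comes from 3 nuclear genes, Atp5g1, Atp5g2 and Atp5g3, that differ in their import signals and yield the same mature subunit. Because reads of the 3 could be confused, the ends of their coding sequences are shown, 225 bases each before the stop codon, 5′ to 3′, from GENCODE transcripts of GRCm38, with every position at which the 3 are not all alike in capitals.
Atp5g1: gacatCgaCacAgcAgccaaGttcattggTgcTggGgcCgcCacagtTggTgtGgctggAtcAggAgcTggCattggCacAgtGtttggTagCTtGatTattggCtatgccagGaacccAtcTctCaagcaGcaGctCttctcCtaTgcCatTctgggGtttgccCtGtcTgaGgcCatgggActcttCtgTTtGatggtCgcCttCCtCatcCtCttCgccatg
Atp5g2: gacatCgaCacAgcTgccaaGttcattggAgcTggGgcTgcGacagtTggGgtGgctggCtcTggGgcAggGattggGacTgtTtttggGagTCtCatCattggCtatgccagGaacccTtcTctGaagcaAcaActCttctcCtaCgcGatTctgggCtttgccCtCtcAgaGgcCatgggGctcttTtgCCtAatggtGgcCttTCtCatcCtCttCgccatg
Atp5g3: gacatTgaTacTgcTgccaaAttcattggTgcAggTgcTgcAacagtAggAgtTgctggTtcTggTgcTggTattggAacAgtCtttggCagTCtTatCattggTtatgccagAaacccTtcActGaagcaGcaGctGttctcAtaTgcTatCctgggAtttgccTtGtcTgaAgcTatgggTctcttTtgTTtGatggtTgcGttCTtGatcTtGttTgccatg

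In these stretches Atp5g1 and Atp5g2 differed at 34 positions, Atp5g1 and Atp5g3 at 45, and Atp5g2 and Atp5g3 at 48, with identities between 78.7% and 84.9%. Most of the differences, 32, 41 and 44, lay on the third codon base. Atp5g1 was at 15.1, 15.8 and 14.8 FPKM in Ctrl, 10.6, 9.46 and 9.78 in OGD and 17.8, 16.6 and 19.2 in OGD_A_485. Its OGD libraries were lowest and its OGD_A_485 libraries highest, without overlap. The log2 fold changes were -0.61 ± 0.07 for OGD against Ctrl and 0.84 ± 0.07 for OGD_A_485 against OGD (SE, adjusted p = 8.72e-05 and 1.03e-05, limma). The pseudogene Gm10039 copies Atp5g1 and was listed at a mean of 51.2 FPKM, and with its reads added both calls held, at -0.64 and 0.87.

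The other c genes had higher levels and smaller differences. Atp5g2 was at 62.6, 66.8 and 66.1 FPKM in Ctrl, 85.9, 73.7 and 79.7 in OGD and 81.4, 89.4 and 82.6 in OGD_A_485. Ctrl was below both treated groups, which overlapped, and the difference of OGD from Ctrl was 0.29 (adjusted p = 0.00464, limma), under the size asked for. Atp5g3, the most abundant of the 3, was at 106, 112 and 113 FPKM in Ctrl, 90.9, 76.8 and 81.3 in OGD and 105, 104 and 125 in OGD_A_485. It had the order of Atp5g1 in OGD at a smaller size, -0.41 against Ctrl and 0.42 for OGD_A_485 against OGD (adjusted p = 0.00312 and 0.00241, limma).

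**Figure D3:**
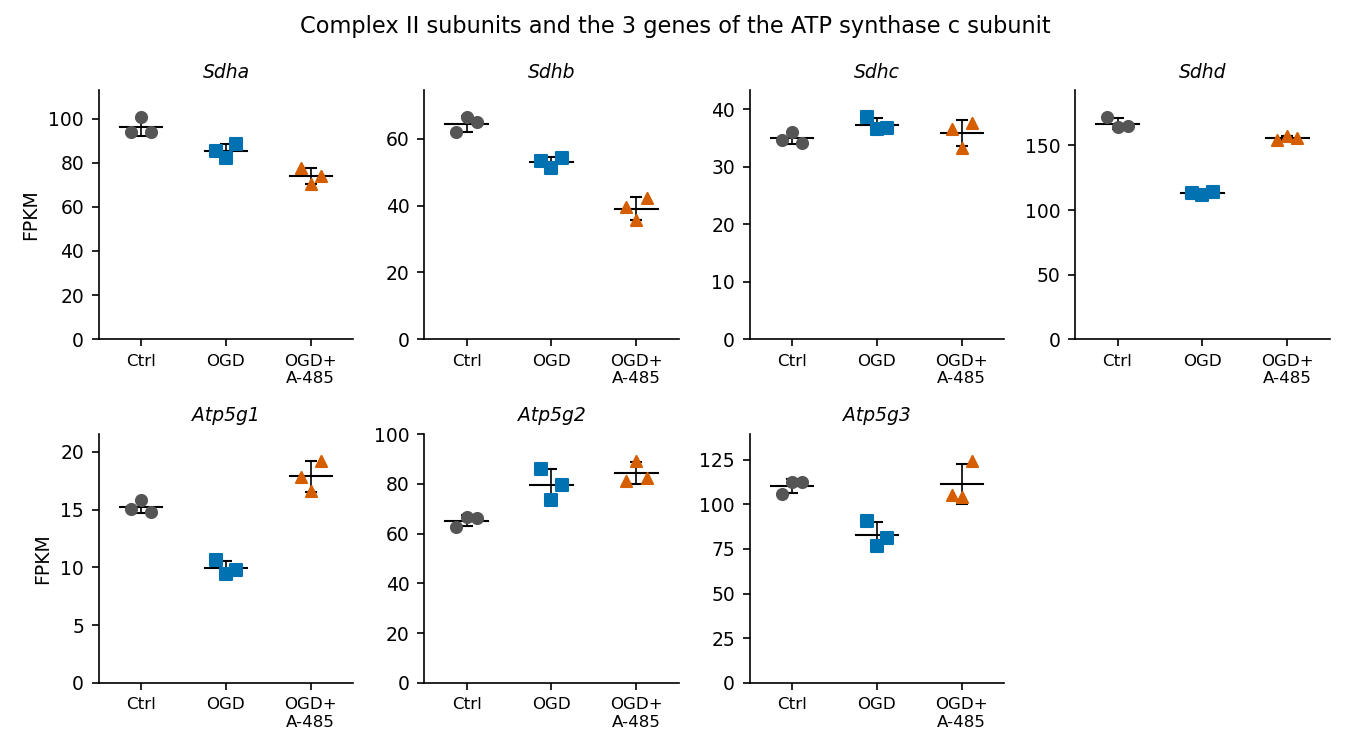
The 4 subunits of complex II (top) and the 3 genes of the complex V c subunit (bottom) in FPKM on linear axes from 0, each point a library, with the mean and SD (n = 3) of each group. Sdhd and Atp5g1 are lowest in OGD, Sdha and Sdhb step down over the 3 groups, and Atp5g2 is lowest in Ctrl.

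The only member that rose in OGD was Ndufv3, a small supernumerary subunit in the NADH-binding module of complex I. It was at 12.7, 16.1 and 15.3 FPKM in Ctrl, 28.7, 26.4 and 26.0 in OGD and 34.5, 40.4 and 41.7 in OGD_A_485. The 3 groups did not overlap and stood in this order, with log2 fold changes of 0.88 ± 0.10 for OGD against Ctrl and 0.52 for OGD_A_485 against OGD (SE, adjusted p = 0.000118 and 0.00217, limma). The second of these was lost without OGD_3 (0.49), OGD_A_485_2 (0.49) or OGD_A_485_3 (0.47).

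A pair of supernumerary complex I subunits fell. Ndufs6, a zinc protein at the joint between the NADH-binding module and the rest of the arm, was at 51.3, 52.3 and 53.8 FPKM in Ctrl, 38.6, 29.9 and 37.4 in OGD and 28.1, 29.2 and 29.7 in OGD_A_485. Ctrl was apart from the lower OGD libraries, and OGD_A_485 was below all of them (log2 fold change of OGD against Ctrl -0.58 ± 0.09, SE, adjusted p = 0.000557, limma). Ndufa5, in the ubiquinone module, was at 20.8, 25.0 and 23.0 FPKM in Ctrl, 17.2, 14.7 and 15.5 in OGD and 19.96, 23.1 and 22.8 in OGD_A_485. Only OGD was apart (-0.53 ± 0.09, SE, adjusted p = 0.00102, limma). Each call was lost without OGD_2 (-0.47 for Ndufs6 and -0.48 for Ndufa5), and that of Ndufa5 also without Ctrl_2 (-0.47).

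None of the 9 nuclear complex IV subunits tested passed the call in OGD against Ctrl, and their median of 0.06 was the only one of the nuclear complexes above 0. Cox6a2, the isoform of heart and skeletal muscle, was near the floor, at 0.220, 0.516 and 0.363 FPKM in Ctrl and 0.578, 0.565 and 0.941 in OGD, from 2 to 9 reads a library. These libraries did not overlap, but the difference of 0.79 ± 0.26 (SE, adjusted p = 0.034, limma) was not called. Cox5a, which sits on the matrix side, was at 31.7, 27.3 and 31.7 FPKM in Ctrl, 23.9, 23.8 and 23.8 in OGD and 26.8, 22.8 and 29.2 in OGD_A_485. Its OGD libraries were below Ctrl and its difference of -0.34 (adjusted p = 0.0139, limma) was under the size asked for. Cox7c overlapped, at 79.8, 91.9 and 83.4 FPKM in Ctrl and 115, 85.9 and 89.6 in OGD.

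Among the deprived cells, more members were higher than lower with A-485, by a margin that depended on the scaling of the libraries. In OGD_A_485 against OGD, 19 of the 98 genes rose and 1 fell, where 12.2% of all genes tested rose and 13.4% fell (25.7% together). In mitochondrial DNA 7 of 13 rose, none fell and all 13 fitted differences were above 0, with a median log2 fold change of 0.70. In the nucleus 12 of 85 rose, a share near the 12.2% of all genes, and 1 fell. The nuclear median was 0.23, beside 0.012 over all genes, and 68 differences were above 0 and 17 below. By adjusted p under 0.05 alone, 50 were higher and 11 lower, beside 25.1% and 24.7% of all genes (49.8% together). After quantile scaling 11 members rose (11.2% of them, beside 11.9% of all genes) and 2 fell (beside 13.5%), so the share that rose was then no higher than that of all genes. After scaling to summed FPKM 12 rose (12.2%, beside 9.57%) and 3 fell (beside 16.4%). The calls of mt-Atp6, Ndufs5, Ndufv3, Uqcr11, Cox5b, Atp5h and Atp5j2 were lost under both scalings, and that of mt-Nd6 after quantile scaling.

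This comparison uses the same OGD libraries as the one against Ctrl, so low values in them enter both with opposite signs, and no agreement between them is counted. For mt-Nd1 the log2 fold change of OGD_A_485 against OGD was 1.02, for mt-Cytb 1.01 ± 0.10 (SE), for mt-Nd5 0.92, for mt-Nd4 0.74 and for mt-Co1 0.68 ± 0.12 (SE). Their adjusted p-values were 0.000105, 5.31e-05, 8.66e-05, 0.000795 and 0.00133 (limma). These 5 calls held in all 21 other fits made at the same thresholds. Those of mt-Nd6 and mt-Atp6 (0.86 and 0.70, adjusted p = 0.0129 and 0.0116, limma) were less firm. That of mt-Nd6 was lost without OGD_1 (0.90), OGD_2 (0.88), OGD_3 (0.78), OGD_A_485_2 (0.83) or OGD_A_485_3 (0.63), and that of mt-Atp6 without OGD_1 (0.59), OGD_3 (0.66) or OGD_A_485_1 (0.49). The rise of mt-Atp6 was also lost in 6 of 12 other settings, among them the reads of copies added (0.48), and that of mt-Nd6 in 3 of 12.

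The third comparison, OGD_A_485 against Ctrl, shows where the inhibitor-treated cells stood beside undeprived cells. In mitochondrial DNA 2 of 13 genes were called, both lower, and the median was 0.05. They were mt-Nd1 (log2 fold change -0.68, adjusted p = 0.000983, limma) and mt-Nd2 (-0.79, adjusted p = 0.000372, limma). The mitochondrial share of summed member FPKM was 73.4% ± 1.58 (SD, n = 3) in OGD_A_485, beside 75.7% in Ctrl and 65.5% in OGD. Over the whole set 13 genes rose and 10 fell against Ctrl, all 13 of the first and 8 of the second nuclear, where 17.0% and 16.6% of all genes tested did so (33.7% together). By adjusted p under 0.05 alone, 33 were higher and 22 lower, beside 28.2% and 28.4% of all genes (56.6% together). After scaling to summed FPKM 5 members were called higher and 16 lower, beside 12.8% and 22.7% of all genes. A median near 0 over a set does not show that its genes were back at their Ctrl level.

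**Figure D4:**
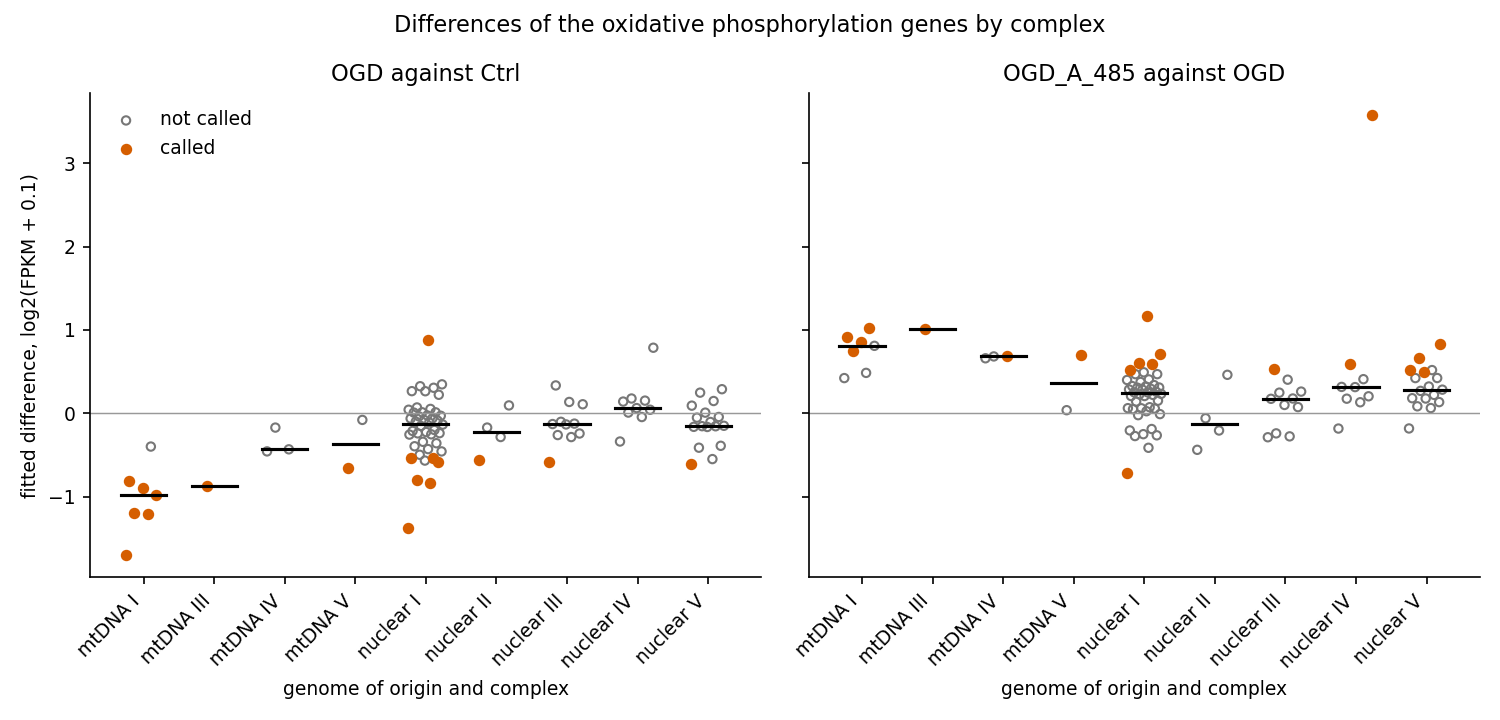
Fitted log2 fold change of each of the 98 tested genes, grouped by genome and complex, for OGD against Ctrl and for OGD_A_485 against OGD. Filled points passed the call and short lines are group medians, which for mitochondrial DNA lie below 0 in the first comparison (-0.98 for complex I) and above 0 in the second (0.81 for complex I).

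By complex, the nuclear genes that rose in OGD_A_485 against OGD were 5 of 44 in complex I, 1 of 11 in complex III, 2 of 9 in complex IV and 4 of 17 in complex V. Over all genes tested 12.2% rose, and the shares in complexes I and III were no higher than that. The medians were 0.24, 0.17, 0.31 and 0.28 in the order given. Complex II had none and a median of -0.13, the only one below 0. There Sdhd was higher than in OGD by 0.46 ± 0.03 and Sdhb lower by a log2 fold change of -0.44 ± 0.06 (SE, adjusted p = 5.93e-06 and 0.000369, limma), both under the size asked for.

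Among complex I subunits the membrane-arm genes Ndufb5 and Ndufb10 rose with A-485, while their Ctrl and OGD libraries overlapped. Ndufb5 was at 4.23, 3.93 and 4.04 FPKM in Ctrl, 4.26, 3.92 and 3.71 in OGD and 8.23, 9.10 and 9.83 in OGD_A_485. Only the last group was apart, with a log2 fold change against OGD of 1.17 ± 0.08 (SE, adjusted p = 5.18e-06, limma). Its exons overlap Mrpl47 over 616 bases, so reads could be shared. Ndufb10 was at 34.4, 35.6 and 34.7 FPKM in Ctrl, 35.0, 29.0 and 33.8 in OGD and 56.2, 48.8 and 54.5 in OGD_A_485, with OGD_A_485 again apart (0.71, adjusted p = 6.89e-05, limma).

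The largest difference of any member was that of Cox6a2. It was at 9.66, 9.03 and 8.77 FPKM in OGD_A_485, from 86 to 97 reads, far above all 6 other libraries. The ratio of means was 13.2 against OGD and 25.0 against Ctrl, and the fitted log2 fold change against OGD was 3.57 ± 0.26 (SE, adjusted p = 6.44e-06, limma). The other isoform, Cox6a1, named after its values were seen, was at 286, 272 and 321 FPKM in the same libraries. Cox5b, a zinc-binding subunit of complex IV, was at 49.3, 47.3 and 45.1 FPKM in Ctrl, 52.9, 40.6 and 44.5 in OGD and 71.3, 67.4 and 68.4 in OGD_A_485. Its rise of 0.59 over OGD (adjusted p = 0.000438, limma) was not called after quantile or summed-FPKM scaling.

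**Figure D5:**
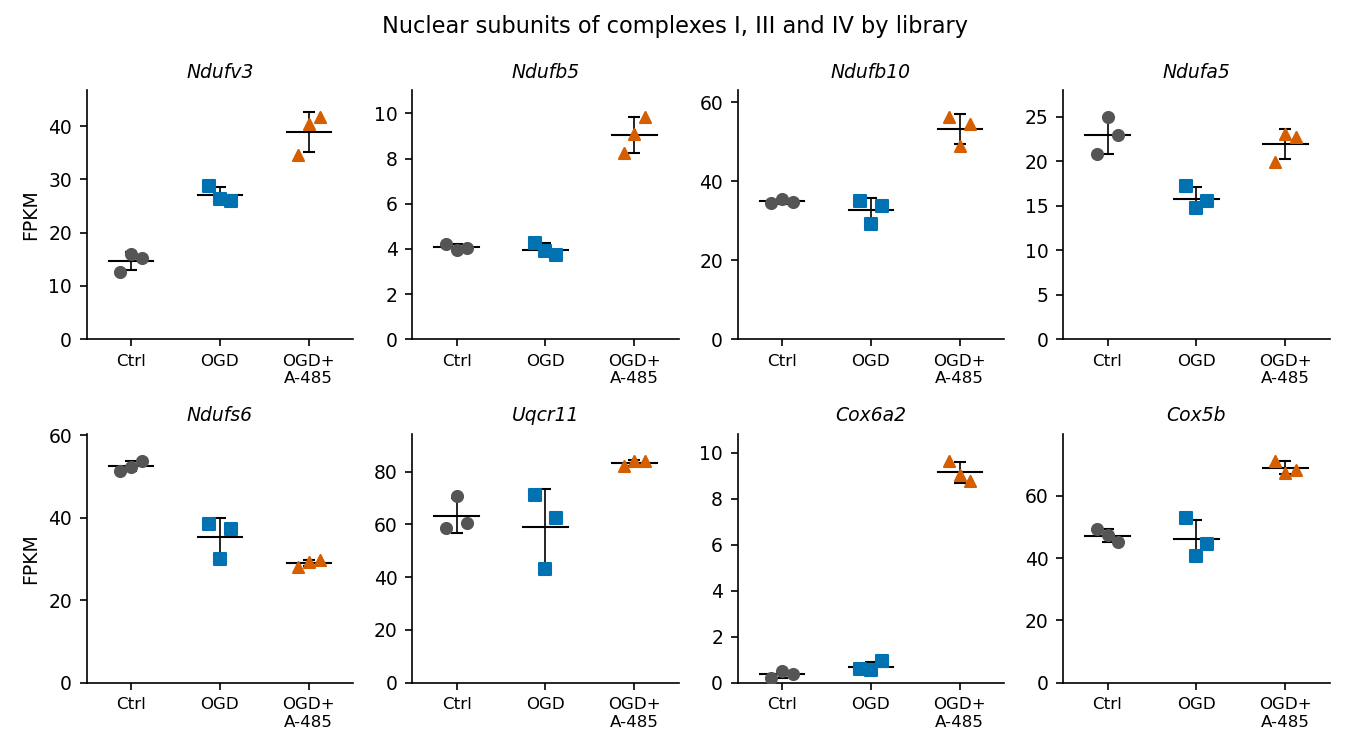
Nuclear subunits of complexes I, III and IV in FPKM on linear axes from 0, each point a library, with the mean and SD (n = 3) of each group. Ndufb5, Ndufb10, Cox6a2 and Cox5b are highest in OGD_A_485 with Ctrl and OGD side by side, Ndufv3 steps up and Ndufs6 steps down over the 3 groups, and Ndufa5 is lowest in OGD.

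In complex V the rises beside Atp5g1 were in small stalk and membrane subunits. Atp5l, subunit g, was at 9.29, 10.3 and 10.3 FPKM in Ctrl, 10.5, 8.06 and 8.36 in OGD and 13.0, 14.1 and 15.5 in OGD_A_485, with the last group apart (0.66 against OGD, adjusted p = 0.000783, limma). Atp5h, subunit d of the stalk that holds the head still, and Atp5j2, subunit f, rose by 0.50 and 0.52 (adjusted p = 0.00258 and 0.00938, limma). Both of these calls were lost without OGD_2, OGD_3, OGD_A_485_2 or OGD_A_485_3, at 0.45 to 0.49 for Atp5h and 0.43 to 0.49 for Atp5j2. They were also lost with a pseudocount of 1 and after scaling to total reads. The pseudogene Gm10250 copies Atp5h and was listed at a mean of 20.3 FPKM. With its reads added the difference of Atp5h was 0.47 and not called, while Atp5l kept its call with copies added (0.64). Atp5k, subunit e, was widely spread, at 12.8 to 24.6 FPKM in OGD and 17.3 to 27.6 in OGD_A_485, and passed no call. Atp5s, a factor tied to the enzyme, was at 3.08, 4.34 and 4.51 FPKM in Ctrl, 4.05, 4.94 and 5.12 in OGD and 3.46, 4.44 and 4.52 in OGD_A_485, with overlap throughout.

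Of the remaining calls, Ndufaf4 rose by 0.60 over OGD (adjusted p = 0.00128, limma) and stayed below Ctrl (-0.77, adjusted p = 0.000213, limma). Ndufs5, on the outer face of the membrane arm, was higher by 0.59 (adjusted p = 0.00665, limma), a call lost without OGD_2 (0.49), OGD_3 (0.55), OGD_A_485_1 (0.56) or OGD_A_485_3 (0.55). Uqcr11, a small complex III subunit, was at 58.7, 70.8 and 60.5 FPKM in Ctrl, 71.2, 43.3 and 62.4 in OGD and 82.1, 84.1 and 83.9 in OGD_A_485. Its OGD libraries were widely spread, and its rise of 0.53 ± 0.16 (SE, adjusted p = 0.022, limma) was lost when any library except OGD_1 was left out, at 0.32 without OGD_2 and 0.52 to 0.59 without the others.

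That spread among the OGD libraries was shared by the short nuclear members as a group. In nuclear members under 1000 bases and at 10 FPKM or more the median deviation from the OGD mean was 0.167 in OGD_1 and -0.193 in OGD_2 on the log2 scale. These 19 members had a median difference of 0.32 in OGD_A_485 against OGD, beside 0.14 for 149 other genes as short and as abundant. The 26 nuclear members of 2000 bases or more had 0.14, beside 0.063 for other genes of that length. The median deviation of these 26 from the OGD mean was smaller in size, at 0.065 in OGD_1 and -0.048 in OGD_2. Spread by library was not taken for genes outside the set. The part of gene length in the results was not tested.

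Against Ctrl the OGD_A_485 cells kept lower Ndufaf genes, with 4 of 8 called lower, none higher and a median of -0.52. Over all genes tested 16.6% were called lower. Of 8 complex I assembly genes outside the set, 2 were higher than Ctrl and none lower, with a median of 0.03. Ndufaf2 was lower by a log2 fold change of -1.51, Uqcc2 by -0.87, Ndufs6 by -0.85, Ndufaf6 by -0.56 and Ndufaf8 by -0.56 (adjusted p = 5.03e-06, 0.000101, 3.13e-05, 0.00173 and 0.0107, limma). The call of Ndufaf6 was lost without Ctrl_2 (-0.48), without OGD_A_485_2 (-0.47) and with a pseudocount of 1 (-0.48). That of Ndufaf8 was lost without Ctrl_1 (-0.47), Ctrl_2 (-0.59) or OGD_A_485_1 (-0.46), with a pseudocount of 1 (-0.49) and with no filter on low values (-0.56). Higher than Ctrl were Ndufv3 by 1.40 and Ndufb5 by 1.13 (adjusted p = 3.52e-06 and 3.7e-06, limma). Named here after their values were seen, Ndufa1, Ndufa6, Ndufb9 and Ndufb11 of complex I and Cox6a1 of complex IV were also higher, by 0.75, 0.63, 0.58, 0.60 and 0.55, and Uqcrc1, a core subunit of complex III, was lower (-0.56, adjusted p = 3.13e-06, limma). Of these, Ndufb11 and Cox6a1 lost the call under all 3 other scalings, with Cox6a1 down to 0.13, Ndufb9 under the scalings to summed FPKM and to total reads, and Ndufa6 under the first of these. Cox6a1 was lost also without OGD_A_485_3 (0.48). The 50 genes nearest to a member on its chromosome had a median of -0.40 around Ndufaf2 and 0.43 around Ndufb5 in OGD_A_485 against OGD, the sign of the member itself. Of the 13 nuclear members called in that comparison 11 shared the sign of the median of their neighbours, and 60 of all 85 did. Around Ndufaf4 and Ndufb10, which rose, the median was -0.14 and -0.01. In OGD against Ctrl only 5 of 10 called members and 44 of all 85 shared the sign. For OGD_A_485 against Ctrl the counts were 16 of 21 and 56 of 85. The part of neighbours in these results was not tested.

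Upstream of the start site, nuclear genes of oxidative phosphorylation are known for sites of the factor Nrf1, which binds a palindrome, and of GABP, an Ets factor. RefSeq promoters (GRCm38.p6) were matched for 73 of 89 nuclear symbols, and both strands were searched from 250 bases before to 50 after the start. The full Nrf1 palindrome, the capitals of Ndufaf4 below, stood in 7 of the 73, or 9.59%, beside 1.07% of 27025 genes. The Nrf1 motif with either base of its middle pair left free, which includes the palindrome, stood in 20, or 27.4%, beside 5.19%, and the Ets motif CCGGAAG stood in 18, or 24.7%, beside 9.93%. Ndufaf2 and Atp5g1, which fell in OGD, held neither the freer Nrf1 motif nor the Ets motif. Shown are the 250 bases before the start of members that fell in OGD, picked among those with an Nrf1 match. They run 5′ to 3′ on the strand of the gene, with matches to the motifs in capitals: Ndufaf4 (chr4:24897833-24898082, plus), Sdhd (chr9:50603850-50604099, minus) and Uqcc2 (chr17:27133892-27134141, minus).
Ndufaf4: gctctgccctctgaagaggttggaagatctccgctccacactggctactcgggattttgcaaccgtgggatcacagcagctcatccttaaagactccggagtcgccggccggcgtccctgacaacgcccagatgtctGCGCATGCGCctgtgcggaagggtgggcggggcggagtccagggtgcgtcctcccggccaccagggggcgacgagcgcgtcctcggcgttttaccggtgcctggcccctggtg
Sdhd: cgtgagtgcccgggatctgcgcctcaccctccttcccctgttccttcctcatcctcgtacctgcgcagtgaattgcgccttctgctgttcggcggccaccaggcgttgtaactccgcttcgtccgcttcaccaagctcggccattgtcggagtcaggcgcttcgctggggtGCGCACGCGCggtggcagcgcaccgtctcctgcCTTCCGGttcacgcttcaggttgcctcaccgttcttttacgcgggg
Uqcc2: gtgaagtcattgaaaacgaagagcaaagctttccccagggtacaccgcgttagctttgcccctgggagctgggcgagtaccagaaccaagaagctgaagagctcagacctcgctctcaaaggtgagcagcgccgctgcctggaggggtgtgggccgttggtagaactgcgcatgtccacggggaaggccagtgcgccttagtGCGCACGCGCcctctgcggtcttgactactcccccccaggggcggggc

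Of the 20 tested members with the freer Nrf1 motif, 5 fell in OGD and none rose, with a median of -0.25. The 5 were Ndufaf4, Sdhd, Uqcc2, Ndufs6 and Ndufa5, and the calls of the last 3 were lost without OGD_2. Of 50 without the motif 3 fell and 1 rose, with a median of -0.09. Over all genes tested 9.81% fell and 11.2% rose. In OGD_A_485 against OGD members with the motif had 3 higher and none lower (median 0.31). Those without it had 8 higher and 1 lower (median 0.25). Over all genes 12.2% were higher and 13.4% lower, so both shares that rose lay near that of all genes. In Sdhd the second run of capitals is CCGGAAG read on the other strand. A match of letters is a description and does not show that a factor was bound.

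Regulators of these nuclear genes were followed as a list of their own. In OGD against Ctrl 6 of 16 fell and 1 rose, beside 9.81% and 11.2% of all genes tested. Nrf1, the factor named above, went from 3.96 FPKM ± 0.213 (SD, n = 3) in Ctrl to 2.67 ± 0.162 in OGD and was 2.58 ± 0.195 in OGD_A_485 (log2 fold change of OGD against Ctrl -0.56, adjusted p = 0.0008, limma). The coactivators Ppargc1b and Pprc1 fell by 0.76 and 0.73 on the log2 scale, and Perm1, a muscle coregulator, went from 0.509 FPKM to 1.14 and rose by 1.0. In OGD_A_485 against OGD 4 rose and 1 fell, beside 12.2% and 13.4% of all genes, among them Nfe2l2, the oxidant-response factor, by 0.99 and the nuclear receptor Esrra by 0.74 (adjusted p = 2.35e-07 and 0.000128, limma).

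Genes that handle mitochondrial RNA had 3 of 16 lower and none higher in OGD, and 2 higher and none lower in OGD_A_485 against OGD. Fastkd5, needed for cutting mitochondrial messages that no tRNA flanks, was at 4.98 FPKM ± 0.412 (SD, n = 3) in Ctrl and 2.44 ± 0.0901 in OGD (-1.0, adjusted p = 3.39e-05, limma), and Slirp, which stabilizes these messages with Lrpprc, rose by 0.95 with A-485. Genes that copy and transcribe mitochondrial DNA had 3 of 21 higher and 1 lower in OGD, and 1 higher and 5 lower in OGD_A_485 against OGD. For these and the lists that follow, the shares of all genes to hold them against are 11.2% higher and 9.81% lower in OGD and 12.2% higher and 13.4% lower with A-485, and several counts, such as that of electron carriers with A-485, lie near them. Tfam, which packs and transcribes that DNA, was at 14.8 FPKM ± 0.889 (SD, n = 3) in Ctrl, 10.5 ± 0.676 in OGD and 10.4 ± 0.958 in OGD_A_485, just under the size asked for in OGD against Ctrl (-0.50, adjusted p = 0.00087, limma).

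Assembly factors of complex IV had 2 of 20 higher and 5 lower in OGD, and 2 higher and 3 lower in OGD_A_485 against OGD. Coa7 fell in OGD and rose with A-485 (-1.10 and 0.71, adjusted p = 0.000197 and 0.0022, limma), and the copper chaperone Cox17 did the reverse (0.77 and -0.87, adjusted p = 0.000888 and 0.000365, limma). Electron carriers and coenzyme Q synthesis had 3 of 17 higher and 2 lower in OGD, and 2 higher and 1 lower with A-485. Cytochrome c itself, Cycs, was at 44.1 FPKM ± 0.272 (SD, n = 3) in Ctrl, 25.7 ± 4.50 in OGD and 24.2 ± 0.412 in OGD_A_485 (-0.79 for OGD against Ctrl, adjusted p = 0.000316, limma). Assembly genes of complexes I, II and III outside the set had none of 8, 4 and 4 called in OGD, and with A-485 only Acad9, a complex I factor, rose (0.68). Of 5 genes of complex V assembly and its inhibitor, Atpaf2 fell in OGD (-0.59), and Atpaf1 and Atpif1 rose with A-485 (0.94 and 0.58). Among 8 uncoupling proteins and carriers of nucleotides and phosphate, Ucp2 rose in OGD (0.53) and none was called with A-485.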

How the data were processed

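The deposited table held FPKM per gene for 9 libraries, which the authors made by counting reads per gene with featureCounts 1.5.0-p3 and dividing by gene length and depth. The submitters' processing notes name the builds GRCm38 and mm10, and the aligner and the strandedness of counting are not given in the sources used here. The labels and the methods differ in the RNA extraction they name. FPKM are relative to a depth set for each library, so all values are relative. That depth was not the total of reads on genes. It was above that total in the Ctrl and OGD libraries (13359079 beside 12681228 reads in Ctrl_1). In the OGD_A_485 libraries it was below (14611484 beside 15208237 reads in OGD_A_485_1). The scaling of the authors therefore differed between groups, and scaling to total reads is given below as an alternative. Whole reads were recovered for every value (tolerance 0.01 reads) and used for depth and 1 alternative test.

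The members and all gene lists were chosen with earlier results of these data known. Genes with a mean of 0.2 FPKM or more were fitted in limma 3.58.1 (R 4.3.3, trended variances, all 3 groups) on log2(FPKM + 0.1), without a replicate block, and adjusted by Benjamini-Hochberg. Named were all mitochondrial members, the Sdh and Atp5g genes, every member called with OGD or with A-485 added, and for each complex, genome and comparison the largest rise and fall at 1 FPKM or more. At most 4 called genes each way were named from a list. Copies were sought in the GRCm38 genome annotation (GENCODE M21) at 98% identity or more over 80% of the copy. Simulated data for OGD against Ctrl with 16130 genes returned 94.7% of 4-fold and 83.7% of 2-fold changes and called 0.565% of unchanged genes. The simulation gave every gene and library the same spread beyond counting noise, while that of the real replicates varied between pairs of libraries. Its rates are therefore not those of these data. With 3 libraries a group, an exact test of 1 gene cannot go below p = 0.1, so none was used. Alternatives were the pseudocount, the filter, scaling, limma-voom on recovered reads, a replicate block, and leaving out each library, and after the data had been seen, scaling to total reads and adding the reads of copies. Tables were joined in Python 3.11.15 (pandas 2.3.3, numpy 2.4.6, scipy 1.17.1), and plots were drawn in matplotlib 3.10.9. The authors ran DESeq2, whose results were not used.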

Additional observations from a re-analysis of the deposited data

How the results depend on the processing

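In OGD against Ctrl the count of members that fell (17) was 38 by adjusted p alone and 13 to 18 with a library left out, and the count that rose (1) was 7 and 1 to 2, the second gene being Cox6a2 without Ctrl_2. In OGD_A_485 against OGD the 19 that rose were 11 after quantile scaling, 12 after scaling to summed FPKM, 50 by adjusted p and 13 to 23 with a library left out. The 1 that fell was 2 after quantile scaling, 3 after scaling to summed FPKM, 2 after scaling to total reads, 11 by adjusted p and 1 to 1 with a library left out. In OGD_A_485 against Ctrl the 13 higher were 5 after summed-FPKM scaling, 6 after scaling to total reads, 33 by adjusted p and 10 to 14 with a library left out, and the 10 lower were 16 after summed-FPKM scaling, 22 by adjusted p and 9 to 11 with a library left out. Summed-FPKM scaling moved the median of all genes in this comparison by -0.149 on the log2 scale, to -0.133, and scaling to total reads by -0.105.

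The mitochondrial median in OGD against Ctrl (-0.82) was -0.96 by quantile, -0.88 by summed-FPKM and -0.87 by total-read scaling, -0.46 with the reads of copies added, and -0.89 to -0.71 with a library left out. In OGD_A_485 against OGD (0.70) it was 0.50 with copies and 0.66 to 0.87 with a library left out. In OGD_A_485 against Ctrl (0.05) it turned to -0.10 and -0.11 by quantile and summed-FPKM scaling, and ran from -0.06 to 0.13 with a library left out, so its sign is not settled. The nuclear median was -0.17 to -0.06 with a library left out in OGD against Ctrl, 0.15 and 0.14 by quantile and summed-FPKM scaling and 0.18 to 0.26 with a library left out in OGD_A_485 against OGD, and in OGD_A_485 against Ctrl (0.08) turned to -0.049, -0.080 and -0.034 by quantile, summed-FPKM and total-read scaling, with 0.04 to 0.14 with a library left out. By recovered reads in place of FPKM, the mitochondrial share was 68.0%, 57.6% and 66.6% in Ctrl, OGD and OGD_A_485. The difference of mt-Nd3 turned to 0.26 with copies added. The cause of these shifts was not tested.

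Of the 18 calls in OGD against Ctrl, 11 held in all 21 other fits at the same thresholds, as did 11 of 20 in OGD_A_485 against OGD and 13 of 23 in OGD_A_485 against Ctrl. Replicate numbers were checked for pairing. The mean correlation of deviations was -0.030 over 9 pairs of same-numbered libraries and 0.015 over 18 pairs of different numbers. No shared deviation was seen, but a weak one could be missed, so pairing is not excluded. With the replicate number as a block, 14 members fell and 1 rose in OGD against Ctrl, 19 rose and 1 fell in OGD_A_485 against OGD, and 13 were higher and 10 lower in OGD_A_485 against Ctrl. The values of mt-Atp8, mt-Nd3, mt-Nd4l and Cox6a2 rest on few reads, and reads of mt-Nd3 and mt-Nd4l may have been counted on copies.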

Other observations

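RNAs of mitochondrial DNA that encode no protein are outside the set, and the rRNAs had another order of groups than most of its messages. The 12S rRNA mt-Rnr1 was at 411, 387 and 468 FPKM in Ctrl, 559.9, 578 and 477 in OGD and 138, 207 and 201 in OGD_A_485, where the OGD libraries were highest and the OGD_A_485 libraries lowest. Its log2 fold change was 0.35 for OGD against Ctrl (adjusted p = 0.0978, limma) and -1.58 for OGD_A_485 against OGD (adjusted p = 4.03e-05, limma). The 16S rRNA mt-Rnr2 was at 185, 174 and 219 FPKM in Ctrl, 172, 165 and 145 in OGD and 87.2, 117 and 121 in OGD_A_485 (-0.26 and -0.58, adjusted p = 0.157 and 0.00672, limma). The leucine tRNA gene mt-Tl1, next to mt-Nd1 on the genome, was at 36.9, 26.2 and 54.3 FPKM in Ctrl, 6.28, 7.17 and 7.58 in OGD and 20.1, 22.8 and 26.8 in OGD_A_485, an order like that of mt-Nd1 (-2.41 and 1.71, adjusted p = 4.68e-05 and 0.000282, limma). Whether reads of mt-Nd1 were counted on this short neighbour was not tested.

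A single library stood apart for Ndufa12, named after its values were seen, an accessory subunit of complex I, at 9.40, 8.99 and 19.2 FPKM in Ctrl, 7.31, 7.25 and 9.33 in OGD and 9.77, 9.08 and 9.46 in OGD_A_485. Its copy Gm15920 was listed at a mean of 51.3 FPKM. Cyc1, the complex III subunit that the rule by name did not take in, was at 104 FPKM ± 0.692 (SD, n = 3) in Ctrl, 74.6 ± 5.40 in OGD and 79.2 ± 4.03 in OGD_A_485 (log2 fold change of OGD against Ctrl -0.48, adjusted p = 0.000165, limma), under the size asked for.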
